A study of Mus musculus with 14 samples.

Results

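A set of 30 genes of cholesterol synthesis, uptake and efflux was followed through tumors and tumor macrophages of mice with and without PI3K gamma. The genes were taken by symbol from a list made for this purpose, and all 30 were found among the 12924 genes of each of the 2 deposited tables, one for sorted cells and one for whole tumors. They comprise 16 enzymes of the synthesis pathway, 5 genes that control the SREBP transcription factors (Srebf1, Srebf2, Scap, Insig1 and Insig2), 2 LXR receptor genes (Nr1h2 and Nr1h3), 3 LXR target genes (Abca1, Abcg1 and Mylip), 2 genes of cholesterol egress from lysosomes (Npc1 and Npc2), and 2 of sterol transfer and storage (Stard4 and Soat1).

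RNA had been sequenced from flank tumors of Lewis lung carcinoma (LLC), a mouse lung tumor line, grown for 14 days in C57BL/6 mice that were either wild type (WT) or p110g-/-, that is, without the PI3K gamma catalytic subunit, which Pik3cg encodes. Whole tumor RNA (30 mg of tissue) gave 3 WT and 3 p110g-/- libraries, and sorted CD11b+Gr1- cells (1000000 cells), which the labels call tumor-associated macrophages (TAM), gave 4 WT and 4 p110g-/- libraries. The genotype is that of the mouse, in every cell it makes, and the inoculated line was the same in both. The labels do not say that libraries of a group came from separate animals, so the p-values measure only the spread between these libraries, which may be technical.

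When sterols run low in the endoplasmic reticulum, the escort protein SCAP carries SREBP precursors to the Golgi, where they are cleaved, and SREBP-2 in particular then turns on the enzymes that make cholesterol. When sterols are plentiful, INSIG proteins hold SCAP back, while oxysterols activate LXR alpha (Nr1h3) and LXR beta (Nr1h2), which raise the exporters ABCA1 and ABCG1 and the ubiquitin ligase MYLIP that degrades the LDL receptor. Macrophages take in much cholesterol from the cells and lipoproteins they engulf, release it from lysosomes through NPC1 and NPC2, and either export it or store it as esters made by SOAT1.

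The promoters below show the letters of 3 motifs tied to sterol control, namely a sterol element, the CCAAT box and a paired repeat. RefSeq start sites on GRCm38.p6 gave a promoter (250 bases before to 50 after the start) for 24 of the 30 genes. There was no entry for Npc1, Stard4, Sqle, Fdps, Abcg1 and Fdft1. The sequences run 5′ to 3′ along the gene's strand, with matches to these 3 motifs in capitals. Hmgcs1 lies at chr13:119690101-119690400 (plus strand) and shows a sterol element and 4 CCAAT boxes, read as ATTGG on the other strand. Insig1 lies at chr5:28071162-28071461 (plus strand) and shows 1 CCAAT box. Abca1 lies at chr4:53159846-53160145 (minus strand) and Srebf1, at one of its listed starts, at chr11:60210422-60210721 (minus strand), and each shows 1 paired repeat, on the strand opposite to the gene. The Srebf1 promoter also shows 1 CCAAT box.
Hmgcs1: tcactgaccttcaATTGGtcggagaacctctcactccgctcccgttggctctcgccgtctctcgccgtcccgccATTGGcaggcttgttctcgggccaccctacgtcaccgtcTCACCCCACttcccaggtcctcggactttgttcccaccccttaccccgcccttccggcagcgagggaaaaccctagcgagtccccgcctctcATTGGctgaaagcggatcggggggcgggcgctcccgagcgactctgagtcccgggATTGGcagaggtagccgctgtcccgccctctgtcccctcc
Insig1: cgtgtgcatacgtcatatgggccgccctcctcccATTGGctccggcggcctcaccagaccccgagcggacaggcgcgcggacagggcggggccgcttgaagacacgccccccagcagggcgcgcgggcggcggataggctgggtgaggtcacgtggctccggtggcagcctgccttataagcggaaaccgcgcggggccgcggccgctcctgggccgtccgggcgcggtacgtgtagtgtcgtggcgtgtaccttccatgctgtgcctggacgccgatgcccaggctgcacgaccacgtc
Abca1: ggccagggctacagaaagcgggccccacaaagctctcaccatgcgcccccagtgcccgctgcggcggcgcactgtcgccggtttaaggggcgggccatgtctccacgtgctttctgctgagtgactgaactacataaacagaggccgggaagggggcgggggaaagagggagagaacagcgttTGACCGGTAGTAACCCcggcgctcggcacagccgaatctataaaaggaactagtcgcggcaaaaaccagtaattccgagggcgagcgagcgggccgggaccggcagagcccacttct
Srebf1: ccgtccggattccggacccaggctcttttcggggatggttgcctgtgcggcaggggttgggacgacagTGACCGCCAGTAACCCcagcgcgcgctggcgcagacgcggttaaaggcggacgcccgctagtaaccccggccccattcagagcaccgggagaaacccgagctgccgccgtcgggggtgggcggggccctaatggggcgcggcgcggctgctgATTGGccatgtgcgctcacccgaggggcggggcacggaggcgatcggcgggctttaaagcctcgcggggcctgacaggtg

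Each motif was searched on both strands in every listed promoter. The sterol element, searched as TCACNCCAC, was in Hmgcs1 alone of the 24 genes and in 1.24% of all 32851 promoters. The looser form TCACNCNAC, which includes the first, was also in Nsdhl and in 2.70% of all promoters. CCAAT, the box bound by NF-Y, a partner of SREBP, was in at least 1 promoter of 12 of the 13 synthesis genes with an entry (Acat2 was the exception), of 19 of the 24 genes, and in 37.4% of all promoters. GGGCGG, the GC box, not marked above, was likewise in 12 of the 13, in 21 of the 24 and in 35.7% of all promoters. CACGTG, the E box, was in 2 of the 13, in 5 of the 24 and in 7.15%. Counts of genes take every listed promoter of a gene, so they are not on one footing with shares of promoters. The paired repeat, searched as 2 copies of NGGTNA in the same orientation with 4 bases between them, is the arrangement that LXR binds together with RXR. It was in Abca1 and Srebf1, starting at position −67 and −182 from the start site, and in 0.718% of all promoters. With both copies spelled AGGTCA it was in none of the 24 genes. A match is a description of letters, not evidence of a bound site.

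The deposited values are whole numbers after scaling of each library's gene counts by the authors, called normalized counts here. Their totals were 33248294 to 38153438 in TAM libraries and 25883561 to 27586429 in whole tumors. Pik3cg was at 2748 to 4477 normalized counts in WT TAM against 1210 to 2211 in p110g-/- TAM, and at 487 to 616 against 242 to 417 in whole tumors, with no overlap in either. The TAM libraries carried macrophage genes. The 10 macrophage markers found of 11 listed summed to 7977 to 12540 per 1000000 in TAM and 1684 to 2680 in whole tumors, whereas 7 neutrophil markers summed to 38.4 to 126 in TAM and 275 to 499 in whole tumors. In the whole tumors the 4 carcinoma epithelium markers found of 7 listed (Krt7, Krt8, Krt18 and Epcam, none at 0) summed to 508 to 536 per 1000000 in WT and 354 to 394 in p110g-/-, and the 8 T cell markers to 4.84 to 12.1 and 21.1 to 27.6. The 7 endothelial markers summed to 32.6 to 53.9 in WT and 57.9 to 68.0 in p110g-/-, and the 3 adipocyte markers found of 8 listed to 15.4 to 20.03 and 20.5 to 31.1, also without overlap. Of the adipocyte list, Fabp4, Cfd and Lipe were in the tables. The 9 fibroblast markers overlapped in whole tumors, at 7550 to 8536 in WT and 8065 to 8621 in p110g-/-. In tissue, fewer cells of a type and less RNA per cell cannot be told apart.

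Same-numbered TAM libraries of both genotypes resembled each other, and the libraries differed by number. Libraries 3 and 4 also resembled each other across numbers, so that these are 4 pairs is an assumption. Mitochondrial genes took 2.51% and 3.06% of WT TAM libraries 1 and 2 but 7.70% and 9.59% of libraries 3 and 4, and 2.73%, 3.21%, 9.01% and 14.4% of p110g-/- TAM libraries 1 to 4. Carcinoma markers were also higher in libraries 3 and 4, at 7.22 and 31.8 per 1000000 in WT libraries 1 and 2 and 87.5 and 89.3 in libraries 3 and 4, and at 5.17, 15.4, 87.1 and 61.2 in p110g-/- libraries 1 to 4. The 9 fibroblast markers, none at 0, summed to 79.5, 857.4, 1594 and 1730 in WT TAM 1 to 4 and to 22.9, 282, 1309 and 864 in p110g-/- TAM, so they were lower in p110g-/- in all 4 same-numbered pairs while the groups overlapped. All 9 had a log2 fold change below 0 in TAM, with a median of −0.88, and none was called, or 2 with the number as a block. The 2 keratinocyte markers found of 7 listed (Krt10 and Sbsn) summed to 3.59 to 4.57 in WT TAM and 6.84 to 10.4 in p110g-/- TAM, without overlap. Only 1 of the 2 had a log2 fold change above 0, and it was called, while the other was below 0. The part of fibroblast or other non-macrophage RNA in the TAM differences below was not tested. The LXR genes, the synthesis median and the TAM differences of Npc1, Stard4, Cd36 and Soat2 are therefore given over all 8 libraries, within libraries 1 and 2 and within libraries 3 and 4, and with the library number as a block where the block changes the call.

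The levels of the genes of both arms were set side by side between TAM and whole tumors. Per 1000000 normalized counts, both LXR receptor genes, all 3 LXR targets and both lysosomal genes were higher in every WT TAM library than in every WT whole tumor library, and 12 of the 16 synthesis genes were lower. Nr1h3 stood at 64.5 ± 13.8 per 1000000 in WT TAM (SD, n = 4) and 7.56 ± 1.11 in WT whole tumor (SD, n = 3), a ratio of 8.54. The ratio was 4.21 for Abcg1, 3.38 for Abca1, 2.15 for Npc2, 1.68 for Npc1, 1.55 for Nr1h2 and 1.26 for Mylip. For Mylip the gap was narrow, from 16.36 in the highest WT tumor to 16.41 in the lowest WT TAM library. Among the synthesis genes the ratio ran from 0.300 for Acat2, which makes acetoacetyl-CoA, to 2.44 for Ebp, a sterol isomerase, with a median of 0.637. Ebp was the exception, higher in every TAM library. Mvd, Tm7sf2 and Dhcr7 overlapped between the tissues, as did Srebf1, Srebf2, Insig1 and Soat1. In p110g-/- libraries the ratio was 3.13 for Abca1, 2.98 for Nr1h3, 2.71 for Abcg1 and 1.92 for Npc2. It was 1.63 for Npc1, 1.43 for Nr1h2 and 0.83 for Mylip, whose p110g-/- mean was thus lower in TAM than in whole tumor. The tables were scaled separately, so these are levels set side by side with no test. The share of all genes that lay apart between the tissues was not counted, so these counts have no background beside them. Whether the genes of either arm differed from other genes in this respect was not tested.

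**Figure D1:**
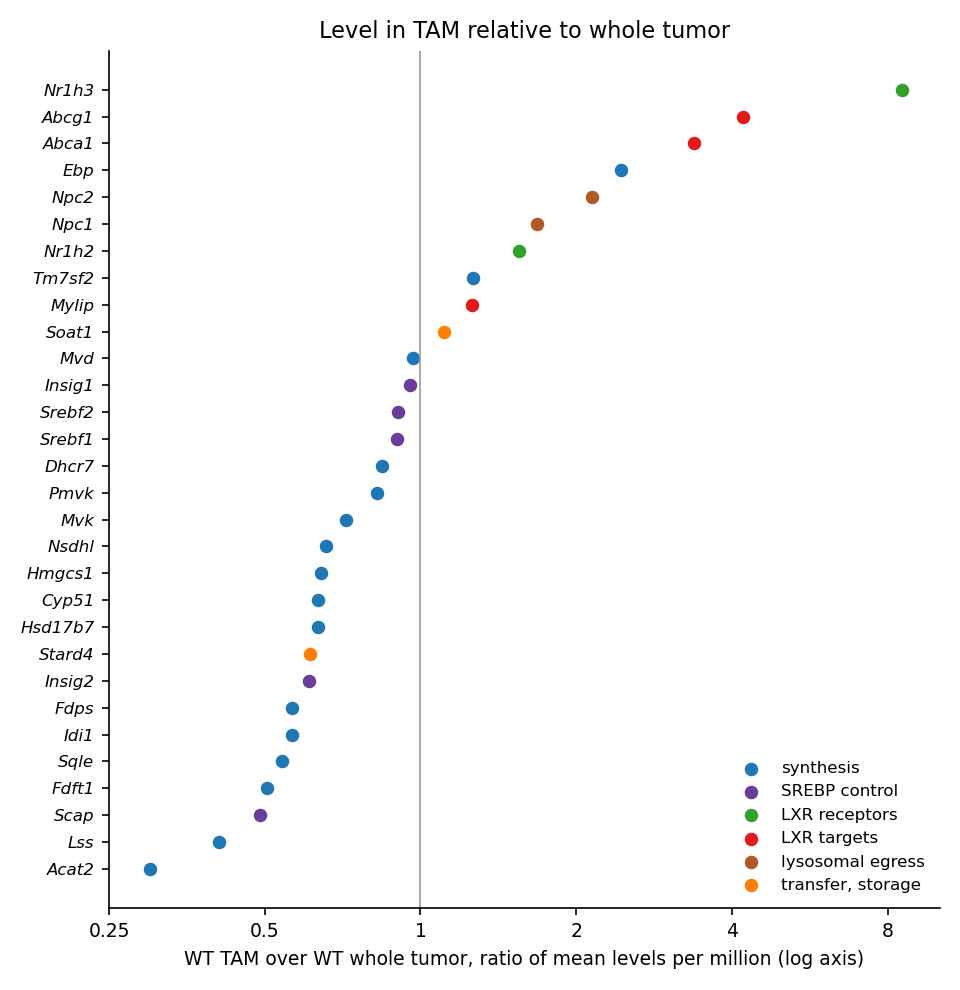
Ratio of the mean level per 1000000 normalized counts in WT TAM (4 libraries) to that in WT whole tumor (3 libraries) on a log axis, one point per gene, coloured by role. Nr1h3 (8.54), Abcg1 (4.21) and Abca1 (3.38) lie highest and most synthesis genes lie left of 1, down to Acat2 at 0.300.

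The genotypes were compared within each table with limma on log2(normalized count + 1), with p-values adjusted over all genes tested by the Benjamini-Hochberg method and a gene called when its adjusted p was below 0.05. All 30 genes were well above the filter on low values (10 normalized counts in at least 4 TAM or 3 whole tumor libraries) and were tested. None was called in TAM, where 0.112% of 12475 genes were called. Of the 30, 1 (Nr1h3) had an unadjusted p below 0.05 there, as did 732 of the 12475 genes tested. The share of the 30 was thus not above that of all genes. With library number as a block, Nr1h3 was called, against 2.50% of all genes. Nr1h3 was also the one gene of the 30 whose TAM libraries did not overlap between genotypes, which held for 4.30% of all genes.

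In whole tumors none of the 30 was called either, where 4.35% of 12717 genes were (286 higher and 267 lower, or 393 higher and 182 lower when libraries were rescaled to equal totals). Of the 30, 10 had an unadjusted p below 0.05, as did 3332 of the 12717 genes tested, a share not far from that of the 30. Libraries did not overlap for 4 genes that were higher in p110g-/- (Nr1h3, Abca1, Npc1 and Soat1) and for 4 that were lower (Mvk, Dhcr7, Srebf1 and Srebf2), against 15.7% and 15.4% of all genes, shares near those of the 30. Leaving out p110g-/- tumor 1 brought 5 of the 30 under the threshold (Mvd, Fdft1, Srebf2, Nr1h3 and Soat1), with 2001 of 12745 genes, a share near that of the 30. Leaving out any other single tumor called none of the 30.

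**Figure D2:**
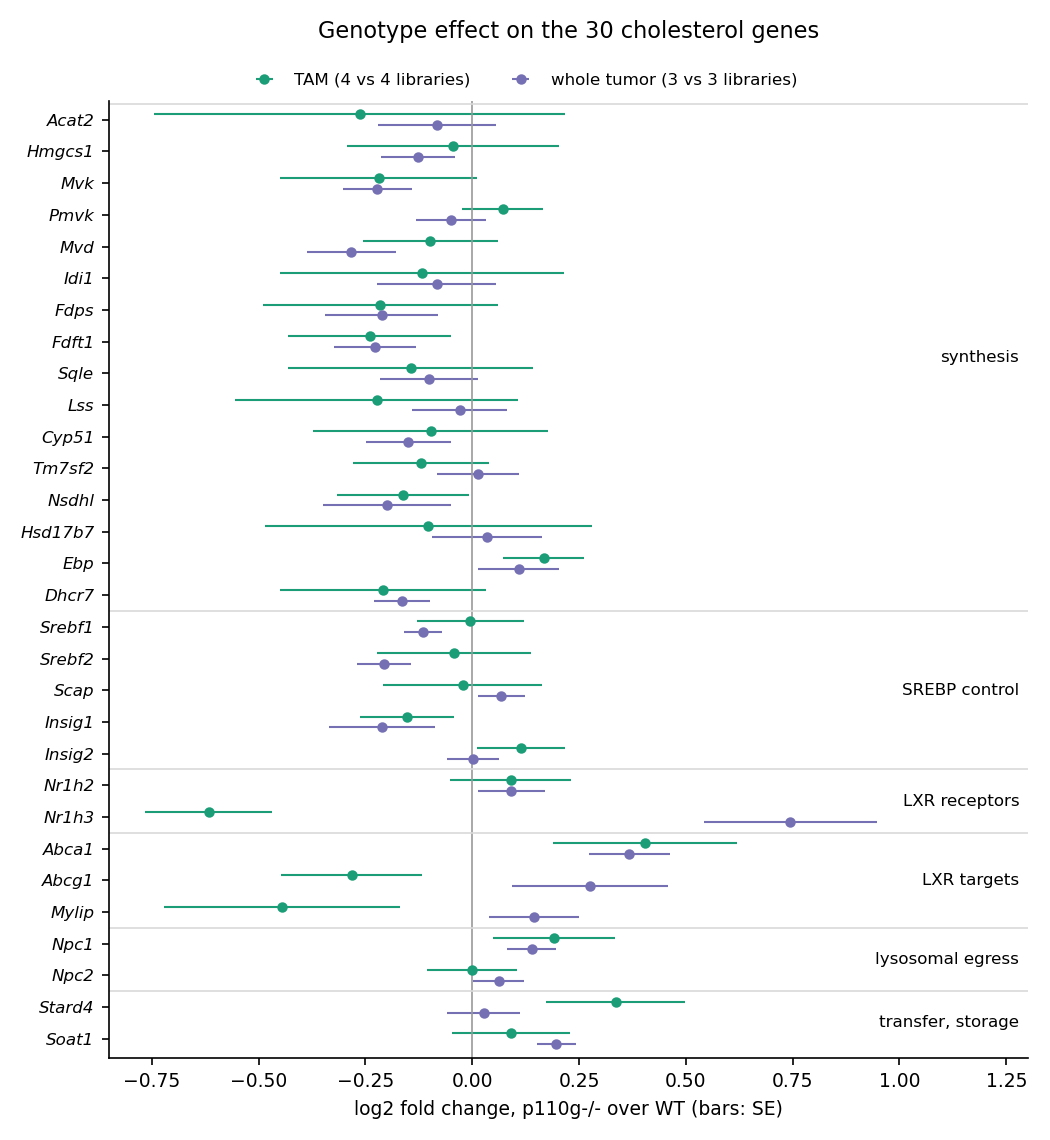
Log2 fold change of p110g-/- over WT for the 30 genes in TAM (4 against 4 libraries) and whole tumor (3 against 3), grouped by role, with bars of 1 SE. Nr1h3 lies at −0.62 in TAM and 0.74 in whole tumor, and most synthesis genes lie slightly left of 0 in both.

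Nr1h3, the gene of LXR alpha (gene ID 22259), was lower in p110g-/- TAM and higher in p110g-/- whole tumors. Normalized counts were 1680, 1983, 2277 and 2760 in libraries 1 to 4 of WT TAM, and those of p110g-/- TAM were 1306, 1392, 1343 and 1550. Every p110g-/- library was thus below every WT library, and the 4 same-numbered ratios of p110g-/- to WT were 0.777, 0.702, 0.590 and 0.562. The log2 fold change was −0.62 ± 0.15 (SE; limma adjusted p = 0.326, or 0.0224 with the number as a block). It was −0.44 within libraries 1 and 2 and −0.80 within libraries 3 and 4, the latter pair being the one with more mitochondrial, carcinoma and fibroblast RNA. Fibroblast markers, like Nr1h3, were lower in p110g-/- in each same-numbered pair. Leaving out both libraries numbered 1, it was −0.70 (adjusted p = 0.0808).

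In whole tumors Nr1h3 was at 173, 213 and 235 normalized counts in WT and at 253, 382 and 424 in p110g-/-, again without overlap but the other way round. The log2 fold change was 0.74 ± 0.20 (SE; limma adjusted p = 0.0745, or 0.0147 without p110g-/- tumor 1). Leaving out any other single tumor did not call Nr1h3. Macrophage markers overlapped between the whole tumor groups (1684 to 2312 per 1000000 in WT and 1773 to 2680 in p110g-/-). Of the 10, 9 had a log2 fold change above 0 there, with a median of 0.075, and none was called. Set against those markers, Nr1h3 was at 3.77, 4.01 and 3.68 per 1000 macrophage marker counts in WT tumors and 5.24, 6.87 and 5.97 in p110g-/- tumors. In TAM the same ratio was 4.31, 4.73, 6.93 and 8.13 in WT libraries 1 to 4 and 3.49, 3.37, 4.41 and 5.09 in p110g-/-, so there the groups overlapped, with p110g-/- libraries 3 and 4 above WT library 1, while each p110g-/- library lay below its same-numbered WT library. The part of carcinoma, T cell, endothelial or adipocyte content in the whole tumor difference was not tested.

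The genotype effect on Nr1h3 in TAM minus that in whole tumor was −1.36 on the log2 scale (SE 0.27, 95% interval −1.96 to −0.77). In the fit over all 14 libraries its adjusted p was 0.0961 with limma, and no gene of the 30 was called, against 0.145% of 12396 genes. Nr1h3 alone of the 30 had an unadjusted p below 0.05, as did 805 of the 12396 genes tested. The share of the 30 was thus not above that of all genes. With the number as a block in TAM the adjusted p of Nr1h3 was 0.0141, and it alone of the 30 was called, against 3.26% of all genes. The adjusted p was 0.0497 without WT TAM 1, 0.0565 to 0.327 without any other single library and 0.0250 without both TAM libraries numbered 1. With TAM libraries 1 and 2 alone the difference was −1.18 (adjusted p = 0.200), and with TAM libraries 3 and 4 alone it was −1.54 (adjusted p = 0.0533).

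**Figure D3:**
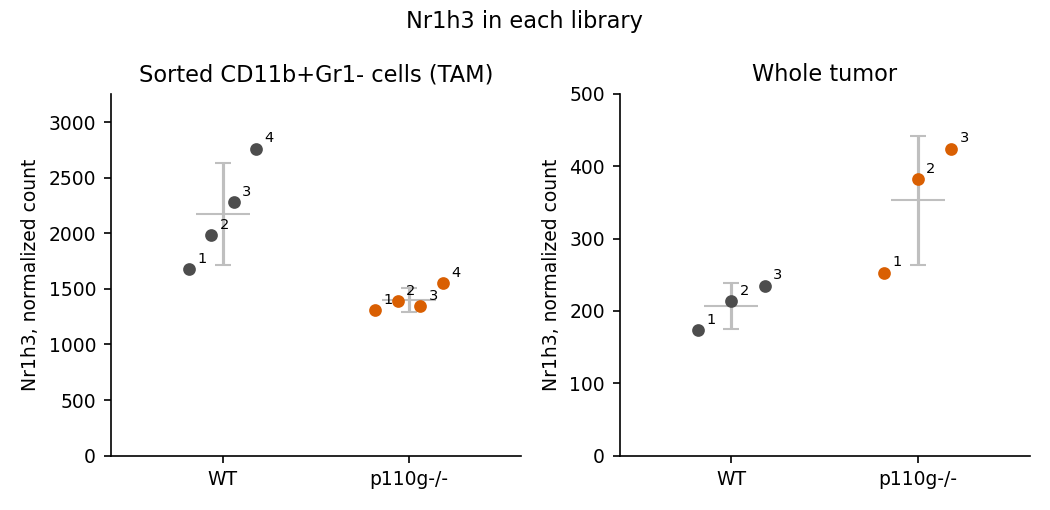
Normalized counts of Nr1h3 in each library of TAM (left) and whole tumor (right), with library numbers beside the points and grey bars for the mean and 1 SD of each group. All p110g-/- TAM libraries (1306 to 1550) lie below the WT ones (1680 to 2760), and all p110g-/- tumors (253 to 424) lie above the WT ones (173 to 235).

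Nr1h2, the gene of LXR beta, which most cells carry, had close means in both genotypes. It held 2781 to 4243 normalized counts in WT TAM and 3074 to 3791 in p110g-/- TAM, with a log2 fold change of 0.09 (95% interval −0.23 to 0.41). In whole tumors it held 1573 to 1831 and 1666 to 1937, with a log2 fold change of 0.09 (95% interval −0.09 to 0.27). Both groups overlapped in both tissues, and the difference of its effects between them was −0.0022 (95% interval −0.41 to 0.41).

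The 3 LXR targets did not share one direction in TAM. Abca1 (gene ID 11303), which exports cholesterol to lipid-poor apolipoproteins, held 10417, 7644, 5884 and 4932 normalized counts in WT TAM libraries 1 to 4 and 9294, 8093, 10217 and 9210 in p110g-/-. The WT libraries spread over a wide range while the p110g-/- libraries stayed close together, and the groups overlapped. The log2 fold change was 0.40 (SE 0.22, 95% interval −0.09 to 0.90), made up of −0.04 within libraries 1 and 2 and 0.85 within libraries 3 and 4. Abcg1 (gene ID 11307), which exports cholesterol to HDL, held 2559, 2923, 2152 and 2118 in WT against 2163, 2356, 1486 and 2056 in p110g-/-. It was lower in all 4 same-numbered pairs, but the groups overlapped (log2 fold change −0.28 ± 0.16 SE, 95% interval −0.66 to 0.10), and stood at −0.28 within libraries 1 and 2 and −0.29 within libraries 3 and 4. Mylip (gene ID 218203) held 672, 747, 613 and 557 in WT against 796, 458, 290 and 471 in p110g-/-. It was lower in 3 of the 4 pairs and higher in the first (log2 fold change −0.44 ± 0.28 SE, 95% interval −1.08 to 0.19), and stood at −0.23 within libraries 1 and 2 and −0.66 within libraries 3 and 4.

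In whole tumors all 3 LXR targets had higher means in p110g-/-, as Nr1h3 did. Abca1 held 1548, 1745 and 1900 normalized counts in WT and 2234, 2017 and 2448 in p110g-/-, without overlap (log2 fold change 0.37 ± 0.09 SE, limma adjusted p = 0.0661). Per 1000 macrophage marker counts it was at 29.8 to 33.7 in WT and 34.5 to 46.3 in p110g-/-. Abcg1 held 359, 475 and 577 in WT against 464, 596 and 631 in p110g-/-, with overlap (log2 fold change 0.27, 95% interval −0.15 to 0.70). Per 1000 macrophage marker counts Abcg1 was at 7.82 to 9.05 in WT and 8.89 to 10.7 in p110g-/-, also with overlap. Mylip held 402, 446 and 403 in WT against 398, 490 and 500 in p110g-/-, also with overlap (log2 fold change 0.14, 95% interval −0.10 to 0.39). The median over the 3 targets was 0.27 in whole tumor and −0.28 in TAM, beside 0.01 and −0.01 over all genes tested. Without WT tumor 1 the whole tumor median was 0.12, and without p110g-/- TAM 3 the TAM median was −0.14.

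**Figure D4:**
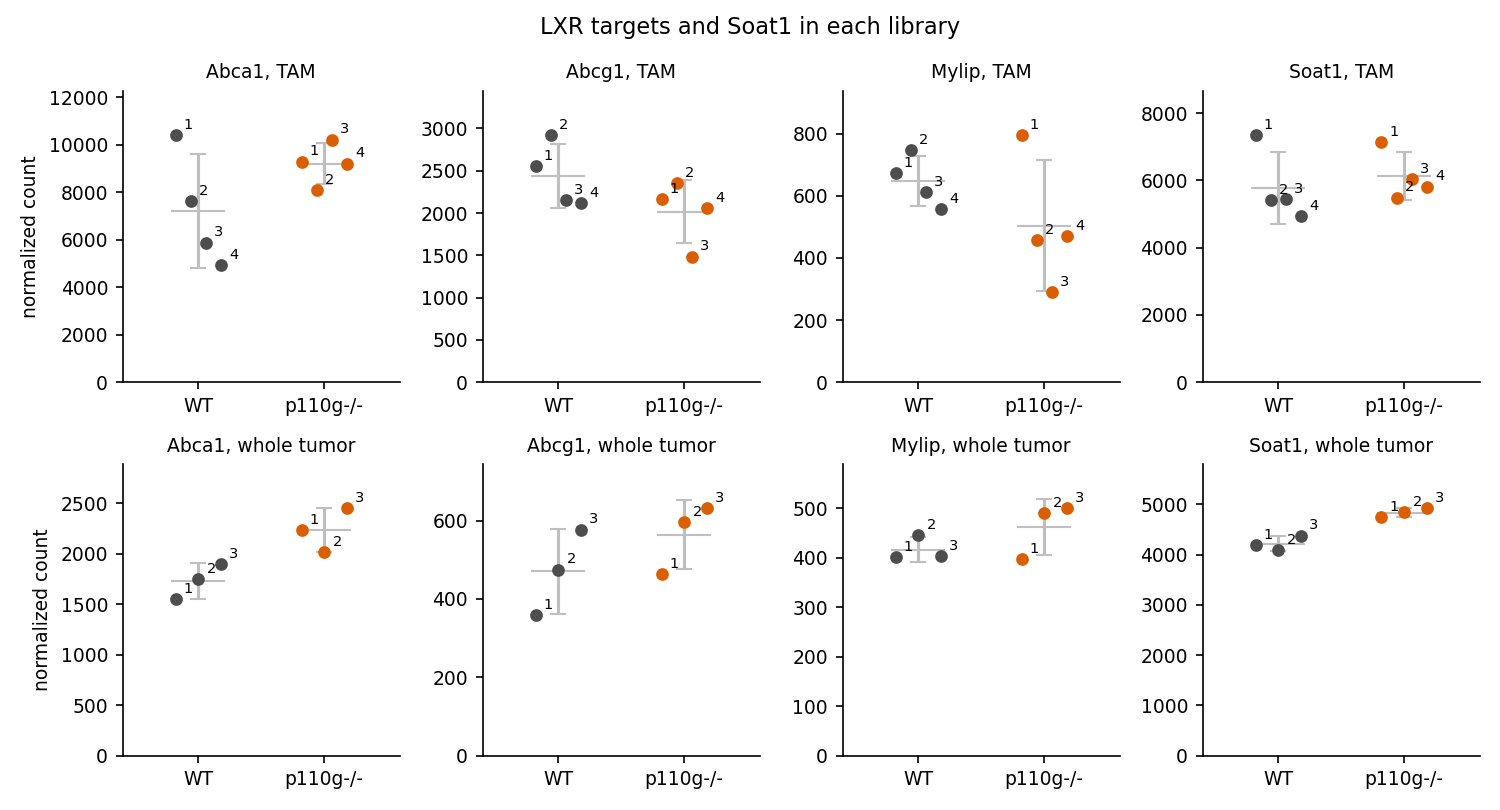
Normalized counts of Abca1, Abcg1, Mylip and Soat1 in each library of TAM (top) and whole tumor (bottom), with library numbers beside the points and grey bars for the mean and 1 SD. Abca1 in WT TAM runs from 10417 in library 1 to 4932 in library 4 while p110g-/- TAM stays between 8093 and 10217, and Abca1 and Soat1 do not overlap between genotypes in whole tumor.

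Synthesis genes varied more between TAM libraries than between genotypes. In TAM 14 of the 16 had a log2 fold change below 0 and the other 2, Pmvk and Ebp, above it, with a median of −0.13 and a range of −0.26 to 0.17. The median was −0.14 within libraries 1 and 2 (14 of 16 below 0) and −0.19 within libraries 3 and 4 (13 of 16). Over all 30 genes 22 were below 0, against 53.2% of all genes tested, whose median was −0.01. Library 1 was the lowest of 4 in both genotypes for 12 of the 16 synthesis genes and 18 of the 30, against 28.2% of all genes. The ratio of library 1 to the mean of libraries 2 to 4 had a median of 0.671 in WT and 0.556 in p110g-/-. Proliferation markers were lowest in the same library, at 534 per 1000000 in WT library 1 against 1247 to 1535 in the others, and at 828.7 against 989 to 1566 in p110g-/-. Fibroblast and carcinoma markers, given above, were also lowest in library 1 of both genotypes. Neutrophil markers were highest there, at 126 in WT (others 38.4 to 41.6) and 99.0 in p110g-/- (others 43.7 to 49.0). Between genotypes, 15 of the 16 proliferation markers had a log2 fold change above 0 in TAM, and none was called. The part of any of these in the synthesis levels was not tested. Without p110g-/- TAM 1, 5 of the 16 synthesis genes were lower and their median was 0.05. Without WT TAM 1 it was −0.33, and without both libraries 1 it was −0.10 with 11 of 16 lower.

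Hmgcs1 (gene ID 208715), the HMG-CoA synthase, shows the pattern in single libraries. It held 2248, 3178, 3296 and 3065 normalized counts in WT TAM libraries 1 to 4 and 1735, 3588, 3739 and 2736 in p110g-/-, so both groups had their lowest value in library 1 and overlapped otherwise (log2 fold change −0.05, 95% interval −0.61 to 0.52). Sqle, squalene epoxidase, an oxygen-dependent control point late in the pathway, held 1534, 2295, 2603 and 2629 in WT against 1142, 2344, 2705 and 2230 in p110g-/- (log2 fold change −0.14, 95% interval −0.80 to 0.51). Idi1, the isopentenyl diphosphate isomerase, held 1333, 2132, 2716 and 3038 in WT against 1158, 2133, 2782 and 2467 in p110g-/- (log2 fold change −0.12, 95% interval −0.88 to 0.64). All 3 turned from lower to higher in p110g-/- when p110g-/- TAM 1 was left out.

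Acat2 had the log2 fold change farthest from 0 among the synthesis genes in TAM. It held 294, 601, 1005 and 1048 in WT against 279, 518, 888 and 699 in p110g-/-, with a span between libraries far wider than the gap between genotypes (log2 fold change −0.26, 95% interval −1.37 to 0.84). Acat2, Lss and Hsd17b7 were lower in all 4 same-numbered pairs, as were Insig1, Nr1h3 and Abcg1, which makes 6 of the 30 against 16.2% of all genes. Ebp, Insig2, Npc1 and Stard4 were higher in all 4 pairs, against 11.2% of all genes.

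**Figure D5:**
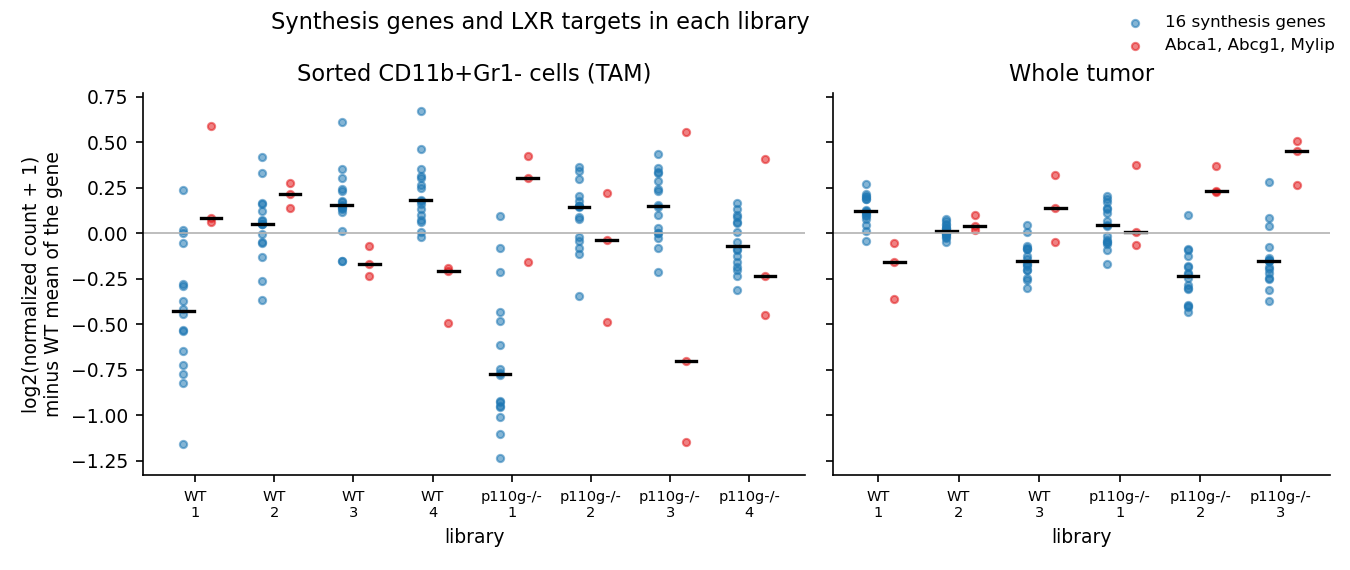
Log2(normalized count + 1) of the 16 synthesis genes (blue) and of Abca1, Abcg1 and Mylip (red) in each library, as the deviation from the WT mean of the gene in the same tissue, with black bars for the medians. The synthesis medians of TAM library 1 are −0.43 in WT and −0.78 in p110g-/-, and in whole tumor the medians of p110g-/- tumors 2 and 3 are −0.23 and −0.15 for synthesis and 0.23 and 0.45 for the LXR targets.

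In whole tumors the synthesis genes were slightly lower in p110g-/-. Of the 16, 13 had a log2 fold change below 0, with a median of −0.11 and a range of −0.28 to 0.11, and 16 of all 30 were below 0, against 48.4% of all genes, whose median was 0.01. Mvd (gene ID 192156), the mevalonate diphosphate decarboxylase, was farthest from 0. It held 1171, 1090 and 1035 normalized counts in WT and 1061, 814 and 849 in p110g-/-, where tumor 1 fell within the WT range (log2 fold change −0.28 ± 0.10 SE, limma adjusted p = 0.143, and 0.0182 without p110g-/- tumor 1). Leaving out any other single tumor did not call Mvd. Mvk, mevalonate kinase, held 682, 625 and 573 in WT against 555, 528 and 525 in p110g-/-, without overlap (log2 fold change −0.22 ± 0.08 SE, limma adjusted p = 0.136). Dhcr7, which makes cholesterol from its last precursor, held 959, 905 and 864 in WT against 852, 801 and 782 in p110g-/-, also without overlap (log2 fold change −0.16 ± 0.07 SE, limma adjusted p = 0.166).

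Other enzymes of the pathway overlapped between the whole tumor groups. Hmgcs1 held 3984, 3931 and 3290 in WT against 3686, 3191 and 3364 in p110g-/- (log2 fold change −0.13, 95% interval −0.33 to 0.07). Sqle held 3697, 3501 and 3020 in WT against 3721, 2792 and 3053 in p110g-/- (log2 fold change −0.10, 95% interval −0.37 to 0.17). Idi1 held 3760, 3339 and 2872 in WT against 3805, 2682 and 2972 in p110g-/- (log2 fold change −0.08, 95% interval −0.41 to 0.24). In all 3 the highest WT value was in tumor 1 and the highest p110g-/- value in tumor 1 as well. The whole tumor median was −0.21 without p110g-/- tumor 1, −0.04 without p110g-/- tumor 2 and −0.05 without WT tumor 1. The sum of the carcinoma markers, given above, was lower in all 3 p110g-/- tumors. Of the 3 markers tested there, 2 had a log2 fold change below 0 and 1 above it. Of the 16 proliferation markers, 15 had a log2 fold change below 0 in whole tumor, with a median of −0.11, and 1 was called. Their sums overlapped between the genotypes. The part of carcinoma content or proliferation in the synthesis levels was not tested.

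Of the genes that control SREBP, none was called in either tissue. Srebf2 (gene ID 20788), the gene of SREBP-2, held 6948, 6804 and 6424 normalized counts in WT tumors and 6311, 5549 and 5648 in p110g-/- tumors, without overlap (log2 fold change −0.21 ± 0.06 SE, limma adjusted p = 0.0973, and 0.0197 without p110g-/- tumor 1). Leaving out any other single tumor did not call Srebf2. Srebf1 (gene ID 20787), which encodes SREBP-1 and is itself an LXR target, held 3817, 3772 and 3944 in WT tumors against 3561, 3623 and 3463 in p110g-/- tumors, lower without overlap (log2 fold change −0.12 ± 0.04 SE, limma adjusted p = 0.154). It thus lay below WT in the same tumors in which Nr1h3 and Abca1 lay above WT. Insig1, itself induced by SREBP, held 2083, 2007 and 1573 in WT against 1858, 1519 and 1502 in p110g-/- tumors, with overlap (log2 fold change −0.21, 95% interval −0.50 to 0.07). Scap and Insig2 were at 0.068 and 0.0011 on the log2 scale in whole tumor.

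In TAM, Srebf1 and Srebf2 followed the library number, and Insig1 and Insig2 differed in one direction in all 4 pairs with overlapping groups. Srebf2 held 6146, 9113, 7600 and 7136 in WT against 5604, 9675, 7314 and 6791 in p110g-/-, so that number 2 was the highest and number 1 the lowest of both groups (log2 fold change −0.04, 95% interval −0.46 to 0.37). Srebf1 held 3963, 4971, 4035 and 4057 in WT against 3861, 5307, 3959 and 3930 in p110g-/-, again with number 2 highest in both (log2 fold change −0.0041, 95% interval −0.29 to 0.28). Insig1 held 1912, 2306, 2328 and 2319 in WT against 1702, 2281, 2002 and 2004 in p110g-/-, lower in all 4 pairs (log2 fold change −0.15, 95% interval −0.40 to 0.10). Insig2 held 909, 862, 1037 and 998 in WT against 966, 954, 1170 and 1033 in p110g-/-, higher in all 4 pairs (log2 fold change 0.11, 95% interval −0.12 to 0.35). Scap, the SREBP escort, was at −0.02.

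Of the genes of lysosomal egress and of storage, none was called in either tissue. Npc1 (gene ID 18145), the membrane protein that passes cholesterol out of lysosomes, held 5305, 5649, 4190 and 3904 normalized counts in WT TAM and 5346, 6382, 4876 and 5022 in p110g-/- TAM, higher in all 4 pairs with overlap between groups (log2 fold change 0.19, 95% interval −0.14 to 0.52, with 0.094 within libraries 1 and 2 and 0.29 within libraries 3 and 4). In whole tumors it held 2194, 2226 and 2468 in WT against 2502, 2501 and 2571 in p110g-/-, without overlap (log2 fold change 0.14 ± 0.06 SE, limma adjusted p = 0.173). Npc2, its soluble partner, was at −0.00079 in TAM (95% interval −0.24 to 0.24) and 0.06 in whole tumor (95% interval −0.08 to 0.20).

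Soat1 (gene ID 20652), the acyltransferase that makes cholesterol esters, held 4190, 4094 and 4376 in WT tumors against 4750, 4840 and 4917 in p110g-/- tumors. Its groups did not overlap and it had the smallest adjusted p of the 30 in whole tumor (log2 fold change 0.20 ± 0.05 SE, limma adjusted p = 0.0549, and 0.0282 without p110g-/- tumor 1). Leaving out any other single tumor did not call Soat1. In TAM it held 7349, 5416, 5438 and 4934 in WT against 7136, 5484, 6037 and 5817 in p110g-/-, with overlap (log2 fold change 0.09, 95% interval −0.23 to 0.41). Stard4, a sterol carrier of the cytosol that SREBP induces, held 1070, 1623, 1593 and 1558 in WT TAM against 1603, 2204, 1879 and 1647 in p110g-/- TAM, higher in all 4 pairs with slight overlap (log2 fold change 0.34 ± 0.16 SE, limma adjusted p = 0.937). It was at 0.51 within libraries 1 and 2 and 0.16 within libraries 3 and 4. In whole tumor it held 2159, 1980 and 1696 in WT against 2039, 1937 and 1942 in p110g-/-, with no gap (log2 fold change 0.03, 95% interval −0.17 to 0.23).

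Setting the arms against each other, the median log2 fold change of the 16 synthesis genes minus that of the 3 LXR targets was 0.15 in TAM and −0.39 in whole tumor. Per library, the same difference of median deviations from the WT means was −0.51, −0.16, 0.32 and 0.39 in WT TAM 1 to 4 and −1.08, 0.18, 0.85 and 0.16 in p110g-/- TAM. It was thus lowest in library 1 of both genotypes, and the groups overlapped (pooled SD 0.64). In whole tumors its values were 0.28, −0.03 and −0.29 in WT against 0.04, −0.47 and −0.60 in p110g-/- (pooled SD 0.31). Tumors 2 and 3 of p110g-/- lay below every WT tumor and tumor 1 lay among them. No test was made of these medians, since the genes were chosen with results of these data known.

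Of 60 further genes of the same pathways, 57 were in the tables and tested. None was called in TAM, with 2 called when number was a block, against 2.50% of all genes. In whole tumor 3 were called, against 4.35% of all genes, and both counts are near those shares. Cd36, a scavenger receptor that takes up oxidized LDL and fatty acids, held 3659, 1984, 1732 and 1091 normalized counts in WT TAM and 9392, 4093, 5570 and 5261 in p110g-/- TAM, all above every WT library (log2 fold change 1.59 ± 0.38 SE, limma adjusted p = 0.307, or 0.0101 once blocked by number). It was at 1.20 within libraries 1 and 2 and 1.98 within libraries 3 and 4. Soat2, the second cholesterol acyltransferase, held 878, 447, 545 and 444 in WT TAM against 577, 249, 196 and 242 in p110g-/- TAM, lower in every pair with library 1 highest in both (log2 fold change −0.95 ± 0.36 SE, limma adjusted p = 0.728, or 0.0292 once blocked by number). It was at −0.72 within libraries 1 and 2 and −1.17 within libraries 3 and 4. In whole tumor Soat2 held 89, 99 and 130 in WT against 162, 133 and 143 in p110g-/-, and the difference of its effects between the tissues was −1.42 (limma adjusted p = 0.490, or 0.00997 once TAM is blocked by number).

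The 3 further genes called in whole tumor had different roles. Arl4c, a small GTPase gene that LXR induces and that promotes export to apolipoprotein A-I, fell, from 5375, 5068 and 5489 in WT to 3702, 3759 and 4020 in p110g-/- (log2 fold change −0.47 ± 0.05 SE, limma adjusted p = 0.00940, and 0.0603 without p110g-/- tumor 2). Its direction was opposite to that of Abca1 and Nr1h3 in the same tumors. Stard5, a sterol-binding transfer protein, rose from 106, 134 and 118 to 168, 179 and 198 (log2 fold change 0.61 ± 0.13 SE, limma adjusted p = 0.0455), and Syvn1, an endoplasmic reticulum ubiquitin ligase, rose from 1592, 1652 and 1700 to 1951, 1948 and 1914 (log2 fold change 0.23 ± 0.05 SE, limma adjusted p = 0.0395). Leaving out any 1 tumor other than p110g-/- tumor 1 ended both calls, with adjusted p of 0.0812 to 0.134. Cd36 in whole tumor held 1532, 1533 and 1895 in WT against 3183, 2032 and 2898 in p110g-/-, without overlap (log2 fold change 0.69 ± 0.16 SE, limma adjusted p = 0.0566), in the same direction as in TAM. Endothelial and adipocyte markers, given above, were also higher in every p110g-/- tumor, and their part in the Cd36 level was not tested.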

How the data were processed

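The labels' protocols name the Qiagen RNeasy kit and standard Illumina libraries. The authors used Bowtie2, DESeq and mm9 per the submitters' processing notes, which give no versions or order. The counter, the annotation and the normalization formula were not given in the sources used here. Both deposited tables hold values that are treated as a score: whole numbers left after each library's gene counts were scaled and rounded, not raw counts, so no count model was run and no counting interval is given. The tables were scaled separately, and levels across them are per 1000000 of column totals. The genes and lists were chosen with earlier results of these data known.

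Each table was fitted alone with limma 3.58.1 (R 4.3.3) on log2(normalized count + 1), which understates changes of low genes, with a mean-dependent prior and two-sided tests. Genes had to reach 10 in at least 4 TAM or 3 whole tumor libraries. The difference of effects was fitted over 14 libraries with 4 group means. The code was tested on simulated data. Values in every library are given for genes called in any of these fits or with the number as a block, for 10 genes chosen by name, and for the gene of each role with the change farthest from 0, plus further genes of each role named after their values were seen; of the other pathway genes, those called, and Cd36 in whole tumor. Markers and pathway genes came from written lists. Reads shared by near-identical genes could not be traced.

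The number in a library's title was checked as a pairing. Over 12475 genes, each TAM library was taken as its deviation from the group mean, and same-numbered ones correlated at 0.847, 0.472, 0.808 and 0.702. The block and the same-numbered pairs take the numbers to pair the TAM libraries, which is an assumption. WT TAM 4 correlated more strongly with p110g-/- TAM 3 (0.777), and p110g-/- TAM 4 slightly more with WT TAM 3 (0.704). The labels do not say what a number marks. Whether libraries 3 and 4 are paired by number or only alike as a set cannot be told apart. Alternatives were the block, 2 other pseudocounts, no filter, 3 rescalings, array quality weights, a prior without a trend, 1 fit over 14 libraries, TAM libraries 1 and 2 or 3 and 4 alone, and each library left out.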

Additional observations from a re-analysis of the deposited data

Results flagged for a closer look

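Among 60 groups of 4 TAM libraries (30 genes in 2 genotypes), 6 had a library standing apart by Dixon's test at 95%, a test that chance passes in about 1 of 20 groups. Low values of WT TAM library 1 made up 3 of them: Insig1 at 1912 normalized counts (others 2306 to 2328), Mvk at 401 (others 600 to 612) and Stard4 at 1070 (others 1558 to 1623). The other 3 were high values of library 2: Srebf1 at 4971 in WT (others 3963 to 4057) and at 5307 in p110g-/- (others 3861 to 3959), and Ebp at 2020 in p110g-/- (others 1701 to 1744). Srebf1 thus stood out in the same-numbered library of both genotypes.

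The genotype effect on Nr1h3 differed between the tissues by −1.36 on the log2 scale, with every p110g-/- TAM library below every WT one and every p110g-/- tumor above every WT one. The test of that difference did not pass without the block in TAM (adjusted p = 0.0961 with limma) and passed with it (adjusted p = 0.0141).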

How the results depend on the processing

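No gene of the 30 was called in the fits as planned, and the alternatives below changed that for few. In TAM the block gave 1 (Nr1h3) and 312 genes in all, array quality weights 2 (Nr1h3 and Abca1) and 999, 1 fit over 14 libraries 88 in all, quantile normalization 6, libraries 1 and 2 alone 0, libraries 3 and 4 alone 0, and leaving out both libraries numbered 1, an alternative chosen after seeing the data, 133. Leaving out 1 TAM library gave 3 to 40 genes, against 14 with all. In whole tumor no pairing by number was seen over 12717 genes. Same-numbered tumors correlated at 0.0947, 0.0763 and 0.178, and not every tumor correlated best with its own number. The block there gave 2 of the 30 (Nr1h3, adjusted p = 0.0235, and Abca1, 0.0426) and 759 genes, among them Pltp and Apoe (0.00762 each), Lpl (0.0173) and Cd36 (0.0364). Equal column totals gave 2 (Abca1 and Soat1). Array quality weights gave 6 (Mvd, Fdft1, Srebf2, Nr1h3, Abca1 and Soat1) and 2308 genes, among them Cd36, Pltp and Lpl. A prior without a trend gave 131 genes and 1 fit over 14 libraries 15. Leaving out 1 tumor gave 0 to 5 of the 30 and 29 to 2001 genes, against 553, so the whole tumor calls depend on single libraries. For the difference of effects the block in both tissues gave 1 of the 30 (Nr1h3) and 327 genes, the block in TAM alone (chosen after seeing the data) 1 and 404, array quality weights 2 (Nr1h3 and Mylip) and 1249, TAM libraries 3 and 4 73 genes, and leaving out both TAM libraries numbered 1 gave 1 and 225. Leaving out 1 library gave 0 to 1 of the 30 and 0 to 101 genes, against 18. The weight estimation stopped before full convergence in some fits.

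Directions near 0 turned. In TAM, Hmgcs1 was at 0.0091 within libraries 3 and 4 and at 0.064 without both libraries 1, Mvd at 0.11 without both, Srebf1 at 0.028 within libraries 1 and 2 and at 0.0070 without both, Abca1 at −0.041 and Soat1 at −0.012 within libraries 1 and 2. With 1 TAM library left out, the log2 fold change ran from −0.18 to 0.19 for Hmgcs1, −0.32 to 0.13 for Sqle, −0.36 to 0.15 for Idi1, −0.65 to 0.060 for Acat2, −0.19 to 0.030 for Mvd, −0.11 to 0.073 for Srebf1 and −0.19 to 0.077 for Srebf2. With 1 tumor left out it ran from −0.23 to 0.026 for Idi1, −0.21 to 0.026 for Acat2 and −0.068 to 0.11 for Stard4. The difference of effects for Abca1 was −0.063 with equal column totals, −0.41 with TAM libraries 1 and 2, and −0.13 to 0.23 with 1 library left out. The cause was not tested. Equal column totals moved the median of all genes from −0.02 to −0.12 in the difference of effects. Synthesis minus LXR targets ran from −0.09 to 0.37 in TAM and from −0.64 to −0.17 in whole tumor. Nr1h3 kept its sign under all alternatives run (−0.80 to −0.44 in TAM, 0.60 to 0.97 in whole tumor, −1.58 to −1.18 for the difference), with adjusted p of 0.00495 to 0.873, 0.0115 to 0.310 and 0.000569 to 0.327. Depth in reads is unknown here, so no detection limit is given.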

Other observations

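The LXR targets Pltp, Apoe and Lpl had higher means in p110g-/- whole tumors without being called in the planned fit. The replicate block and, for Pltp and Lpl, array quality weights brought them under the threshold, as given with the alternatives. No pairing of whole tumors by number was seen over all genes, so the block there rests on an assumption. Pltp, Apoe and Lpl each ranked tumors by number in the same order in both genotypes. Arl4c, the LXR-induced gene that was called in the planned fit, went the other way (log2 fold change −0.47). Pltp, a phospholipid transfer protein, held 3262, 4638 and 5492 normalized counts in WT against 4964, 7969 and 8487 in p110g-/- (log2 fold change 0.67, adjusted p = 0.132 with limma). Apoe, the apolipoprotein that macrophages secrete, held 6669, 8065 and 12041 in WT against 10084, 12273 and 18211 in p110g-/- (log2 fold change 0.60, adjusted p = 0.189). Lpl, lipoprotein lipase, held 889, 1066 and 904 in WT against 1176, 1471 and 1222 in p110g-/-, without overlap (log2 fold change 0.43, adjusted p = 0.0580). In TAM, Pltp and Apoe were at 0.23 and 0.17 on the log2 scale, with overlapping groups, and Lpl at 0.55. Endothelial and adipocyte markers were higher in the same tumors. Macrophage markers overlapped between the genotypes there. Their sum rose with tumor number in both genotypes, as Pltp and Apoe did and Lpl did not. Of the 10 macrophage markers, 9 had a log2 fold change above 0 in whole tumor, with a median of 0.075, and none was called. The part of macrophage, endothelial or adipocyte content in the levels of Pltp, Apoe and Lpl was not tested.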
